A study of Homo sapiens with 30 samples.

Results

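The 6 genes described here belong to plasminogen activation: the activators PLAU (urokinase) and PLAT (tissue-type plasminogen activator), the urokinase receptor PLAUR, the serpins SERPINE2 and SERPINB2, and the Kunitz-type inhibitor TFPI2. They were taken by name from a deposited count table, and all 6 were found among its 58780 genes. The assay, PRO-seq (precision nuclear run-on), labels nascent RNA on polymerases that are engaged in permeabilised cells, so the values report ongoing transcription and not mRNA or protein. All libraries came from A549, a human lung adenocarcinoma line. The 30 libraries formed 15 groups of 2, and every group held 0.01% DMSO. Untreated cells, labelled as 15 min, were the comparison for all times. Dexamethasone (Dex, a synthetic glucocorticoid) was given at 100 nM for 15 min or for 3 h. The arginine methyltransferase inhibitors GSK591, which acts on PRMT5, and MS023, which acts on the type I enzymes, were given at 1 µM. Each was added together with Dex for 3 h, or alone for 2, 4 or 7 days, or for 7 days and then with Dex for 15 min or 3 h. The 15 groups held no inhibitor alone for 3 h and no untreated cells labelled 2 to 7 days. Nothing in the labels says whether the 2 libraries of a group came from separate cultures, so the spread between them may be technical.

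Plasminogen is a circulating zymogen, and urokinase and tissue-type activator cleave it to plasmin, a protease that degrades fibrin and matrix proteins. The urokinase receptor is anchored in the cell membrane by a lipid tail and concentrates urokinase at the cell surface. Serpins trap their protease in a covalent complex: SERPINE2 (protease nexin 1) inhibits thrombin and both activators, and SERPINB2 (plasminogen activator inhibitor 2) inhibits urokinase. TFPI2 is not a serpin, and it inhibits plasmin itself. Glucocorticoids act through the glucocorticoid receptor, a transcription factor that raises some genes from its own response elements and lowers others, among them targets of the factors AP-1 and NF-kB. Arginine methyltransferases modify histones, splicing factors and transcription factors.

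PLAUR and TFPI2 were the members that were called lower after 3 h of Dex with and without either inhibitor. The 250 bases before the start of each are shown for that reason, read 5′ to 3′ on the minus strand from RefSeq promoter records (GRCh38.p14), at chr19:43670170-43670419 and chr7:93890754-93891003. Capitals mark the match to the AP-1 site TGANTCA, whose first base is 186 bases before the start of PLAUR and 87 before that of TFPI2. Matches to other motifs are not marked. These starts are those of the RefSeq records and lie inside the wider GENCODE genes given below.
PLAUR: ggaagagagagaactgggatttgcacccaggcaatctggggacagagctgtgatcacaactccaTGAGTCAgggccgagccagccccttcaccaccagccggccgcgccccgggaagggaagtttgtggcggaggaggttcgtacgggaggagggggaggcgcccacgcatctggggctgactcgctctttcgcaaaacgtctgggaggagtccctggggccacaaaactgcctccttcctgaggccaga
TFPI2: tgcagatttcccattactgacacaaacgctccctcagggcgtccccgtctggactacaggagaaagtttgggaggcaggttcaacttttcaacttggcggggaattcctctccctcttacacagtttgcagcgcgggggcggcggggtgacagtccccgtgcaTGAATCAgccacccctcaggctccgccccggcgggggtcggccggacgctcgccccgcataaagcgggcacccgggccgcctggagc
The record holds 7 start sites for 5 of the members, and PLAT was not among them. An AP-1 match was present in 3 of the 7 windows (PLAUR, TFPI2 and SERPINB2) and in 6.57% of all 35116 windows. The windows as listed also reach past the start, while every match listed for the members lies before it. Whether the shares of all windows include bases past the start is not given here. SERPINE2, which was also called lower after 3 h of Dex alone, had no AP-1 match. The palindromic glucocorticoid response element was in 0 of 7 windows and in 0.328% of all. Both strands were searched, also for NF-kB (1 of 7, in TFPI2; 9.96% of all), the cyclic AMP response element TGACGTCA (0 of 7; 1.65%), the TATA box TATAAA (1 of 7; 10.7%) and the GC box GGGCGG (4 of 7; 42.6%). ETS sites GGAAGT were in 1 of 7 windows (19.5% of all), CCAAT boxes CCAAT in 2 (32.0%), E-boxes CACGTG in 1 (6.35%) and the hexamer CACATG in 2 (9.42%). These are matches of letters only.

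Counts per library summed to 8441211 to 13069598. Mitochondrial genes took 58.7% to 78.7% of them, which left 2497281 to 3934713 counts on nuclear genes other than ribosomal RNA. The mitochondrial share differed by treatment. It was 76.0% and 73.4% in untreated libraries, 58.7% and 59.6% after 7 days of MS023, and 73.7% and 78.7% after 7 days of GSK591. Scaling by total counts includes these reads. Values are given as CPM, counts scaled to library size after a trimmed-mean correction (TMM), and a count of 0 allows a level of up to 0.212 to 0.410 CPM by library (3 counts, counting error only). Over 11117 genes, the 2 libraries of each group were compared by Pearson's r on the log2 scale, which was 0.923 for MS023 with Dex for 3 h and 0.959 to 0.983 in the other groups. Replicate 2 of MS023 with Dex for 3 h stood apart from every library, with a highest r of 0.927, to a Dex 15 min library and not to its own replicate. SERPINE2 stood at 5.58 CPM in replicate 1 of that group and 18.1 CPM in replicate 2. Because all groups share 1 estimate of the spread, this pair widens the errors of SERPINE2 and TFPI2 elsewhere. Results whose call changes without the pair are given in both ways where they are described. The fit without the pair was chosen after the data were seen, so the calls it adds are not independent of that choice. The labelled line was checked on its markers: KRT7, KRT8 and KRT18 had medians of 232, 223 and 106 CPM, AKR1C1 206 CPM and AKR1B10 163 CPM, while CDKN2A, deleted in A549, was at 0 counts in 20 libraries and had at most 3. EPCAM and CDH1 were low, at 2.34 and 2.64 CPM. No leukocyte or endothelial marker had a median above 0.510 CPM, and of 4 fibroblast markers COL1A1 was highest, at 3.93 CPM, and DCN lowest, at 0.0416 CPM; their part in the results was not tested.

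All 6 genes are protein coding in GENCODE 29 (GRCh38). PLAU lies at chr10:73909177-73917497 on the plus strand, and 916 bases of its exons overlap exons of the antisense gene C10orf55. PLAUR lies at chr19:43646095-43670547 on the minus strand and PLAT at chr8:42175233-42207724 on the minus strand, with no exon of another gene over theirs. SERPINE2 is the longest, at chr2:223975112-224039319 on the minus strand. TFPI2 lies at chr7:93885396-93890991 on the minus strand and shares 44 exonic bases with GNGT1 and 79 with AC002076.1 on the opposite strand. SERPINB2 lies at chr18:63871692-63903890 on the plus strand and shares 547 exonic bases with its neighbour SERPINB10. Whether the counting used strand is not given in the sources used here, so reads in these overlaps cannot be assigned to 1 gene.

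Of the 6 genes, 5 had counts in all 30 libraries and passed the filter on low counts. SERPINB2 did not: it had 5 counts in 4 libraries, at most 2 in any, so it was at or below the limit of detection in every group and has no test. Per kilobase of exon, the median level over the libraries was 4.74 CPM for TFPI2, 3.55 for PLAU, 2.88 for PLAUR, 2.03 for SERPINE2 and 1.26 for PLAT. Across groups, the ratio of the highest to the lowest mean CPM was 5.00 for TFPI2, 4.98 for PLAU, 3.56 for SERPINE2, 3.14 for PLAUR and 1.66 for PLAT. PLAT thus moved least, and in the order of its group means each of the 14 neighbouring pairs had overlapping libraries. PLAU stood clearly apart at its top, with 23.8 ± 0.0791 CPM (SD, n = 2) after 7 days of GSK591 and 13.7 ± 1.11 CPM in the next group, 4 days of GSK591. PLAU was lowest after MS023 and then Dex for 3 h, at 4.78 ± 1.12 CPM. In its order 11 of 14 neighbouring pairs overlapped, as they did for SERPINE2 and TFPI2, and 9 of 14 did for PLAUR.

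**Figure D1:**
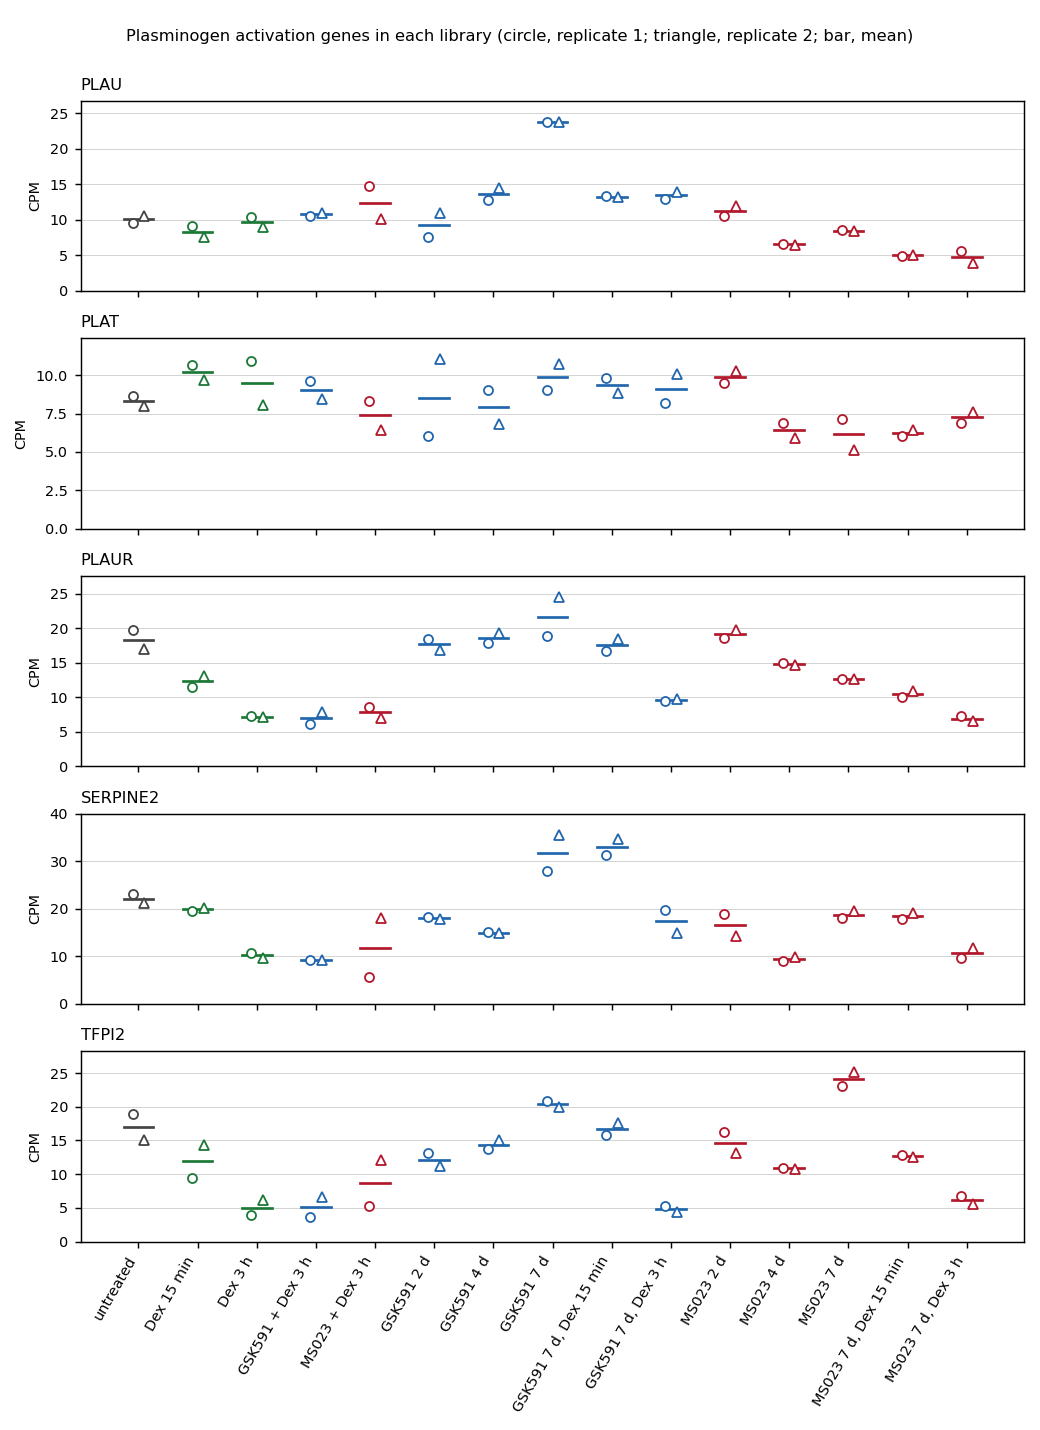
Levels of the 5 measured genes in every library (y axis, CPM after TMM scaling; x axis, the 15 groups; circle, replicate 1; triangle, replicate 2; bar, mean). PLAU is highest after 7 days of GSK591, PLAUR and TFPI2 are low in groups that received Dex for 3 h, the SERPINE2 mean is lower with Dex for 3 h than without it in cells given no inhibitor or either one for 7 days, and the 2 libraries of MS023 with Dex for 3 h differ for SERPINE2 and TFPI2.

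Dex alone lowered the receptor and both inhibitors, and left the activators without a detected change. After 3 h, 3 of the 5 genes tested had fallen (PLAUR, TFPI2 and SERPINE2) and none had risen, where 4.41% of the 22919 genes tested were called lower and 10.5% were called in either direction. Calls are at an adjusted p below 0.05 (edgeR quasi-likelihood test, Benjamini-Hochberg over the 22919 genes). PLAUR stood at 19.7 and 17.0 CPM in the untreated libraries, 11.5 and 13.1 CPM after 15 min, and 7.33 and 7.08 CPM after 3 h. The 3 groups did not overlap. In such bulk libraries, fewer cells that transcribe a gene and less RNA per cell cannot be told apart. At 3 h PLAUR was 2.54-fold lower (-1.34 on the log2 scale, SE 0.168, edgeR adjusted p = 2.47e-08), and from 15 min to 3 h it was -0.77 (SE 0.174, edgeR adjusted p = 0.00162). At 15 min PLAUR was the only member of 5 called, where 1.26% of all genes were called, with a log2 fold change of -0.57 (SE 0.153, edgeR adjusted p = 0.0403). That early call was lost with DESeq2 (adjusted p = 0.156), with no filter on low counts (adjusted p = 0.0756), with total counts (0.625) and on leaving out any of the 4 libraries compared. From 15 min to 3 h, PLAUR and TFPI2 were called lower among the 5, where 10.8% of all genes were called, and the PLAUR call ended without Dex 15 min replicate 2 (edgeR adjusted p = 0.0506).

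TFPI2 fell furthest. It stood at 18.9 and 15.0 CPM in untreated cells, 9.48 and 14.3 CPM after 15 min, and 3.93 and 6.11 CPM after 3 h. Every 3 h library was below every other library of the 3 groups. TFPI2 was thus 3.40-fold lower at 3 h (-1.77 on the log2 scale, SE 0.294, edgeR adjusted p = 0.000216). From 15 min to 3 h it was -1.26 (SE 0.304, edgeR adjusted p = 0.00876), a call that ended without Dex 15 min replicate 2 (adjusted p = 0.124) or without Dex 3 h replicate 1 (adjusted p = 0.137).

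SERPINE2, the serpin that covers both activators, had 23.1 and 21.2 CPM in untreated cells and 19.5 and 20.3 CPM after 15 min. At the later time it had 10.6 and 9.77 CPM. The 3 h libraries lay well below the others, while those of 15 min lay just below the untreated ones. This was a 2.16-fold fall at 3 h (-1.11 on the log2 scale, SE 0.312, edgeR adjusted p = 0.0295). The call was lost on leaving out any of the 4 libraries compared (adjusted p from 0.0933 to 0.171) and with total counts (0.195). In a fit without the MS023 with Dex 3 h pair the same change had an SE of 0.156 and an edgeR adjusted p of 7.41e-08, and that from 15 min to 3 h, -0.96, moved from an adjusted p of 0.0615 to 3.99e-06.

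The activators gave other values. PLAU had 9.57 and 10.6 CPM in untreated cells, 9.08 and 7.60 CPM after 15 min, and 10.4 and 9.04 CPM after 3 h. Untreated and 3 h libraries overlapped, and the log2 fold change of -0.05 had a 95% interval from -0.42 to 0.32. C10orf55, antisense to PLAU, was at -0.41 at 15 min (edgeR adjusted p = 0.582) and 0.53 at 3 h (edgeR adjusted p = 0.0463). The 3 h call of C10orf55 held in 7 of 12 alternatives. From 15 min to 3 h C10orf55 rose by 0.94 (edgeR adjusted p = 0.000269). PLAT had 8.68 and 7.96 CPM in untreated cells, 10.7 and 9.70 CPM after 15 min and 10.9 and 8.06 CPM after 3 h. At 3 h it differed by 0.20 on the log2 scale, with an interval from -0.22 to 0.63.

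Adding an inhibitor for the 3 h of Dex changed none of the 5 genes by the test. With GSK591, 0 of 22919 genes were called against Dex alone (0%), although 1306 had an unadjusted p below 0.05, none of the members among them, and DESeq2 called 0 of the 5. PLAUR had 6.13 and 7.80 CPM and TFPI2 3.68 and 6.55 CPM with GSK591 and Dex, and these overlapped the libraries of Dex alone. The log2 differences from Dex alone ran from -0.14 for SERPINE2 to 0.14 for PLAU, with 95% intervals of -0.81 to 0.53 and -0.22 to 0.51. Against untreated cells the same group had log2 fold changes of -1.40 for PLAUR, -1.73 for TFPI2 and -1.25 for SERPINE2 (edgeR adjusted p = 6.35e-09, 0.000195 and 0.0133), and 11.9% of all genes were called in that comparison. The SERPINE2 call ended on leaving out any of its 4 libraries (edgeR adjusted p from 0.0529 to 0.0956) and with total counts as the scaling (0.141).

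With MS023, 0.196% of genes were called against Dex alone and 0 of the 5, with 1 of the 5 (TFPI2) at an unadjusted p below 0.05 and 0 called by DESeq2. Over all genes tested, 3222 had an unadjusted p below 0.05. The values of the members depended on which library of the pair was kept. TFPI2 had 5.25 CPM in replicate 1 and 12.0 CPM in replicate 2, against 3.93 and 6.11 CPM with Dex alone. The log2 difference was 0.82 (SE 0.317, edgeR adjusted p = 0.239). Without replicate 1 it was 1.27 (edgeR adjusted p = 0.000247), and that of SERPINE2 was 0.81 (edgeR adjusted p = 0.00174). Without replicate 2 the SERPINE2 difference was -0.87 and did not pass. PLAUR had 8.64 and 7.04 CPM with MS023 and Dex, and was called lower than untreated cells (log2 fold change -1.23, edgeR adjusted p = 1.09e-07), as was TFPI2 (-0.95, edgeR adjusted p = 0.0197), where 12.0% of genes were called. The TFPI2 call ended without untreated replicate 1 (adjusted p = 0.160), without MS023 with Dex replicate 1 (0.108), with the compared groups alone (0.367) and with total counts (0.405). SERPINE2 stood at -0.88 against untreated cells (edgeR adjusted p = 0.0703), at -1.99 without MS023 with Dex replicate 2 (6.65e-11) and at -0.30 without replicate 1 (0.267).

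The members called against untreated cells differed between the inhibitors alone and between their times. No group held untreated cells labelled 2 to 7 days. In these comparisons the inhibitor and the time in culture therefore cannot be told apart. PLAU was higher at 7 days of GSK591, 1 of 5 genes tested, where 13.2% of all genes were called and 6.68% were called higher. In edgeR and in DESeq2 0 members were called at 2 days (5.64% of all genes in edgeR) and at 4 days (17.2%), with 0 and 1 (PLAU) at an unadjusted p below 0.05. Over all genes tested, 4430 at 2 days and 6741 at 4 days had such an unadjusted p. PLAU had 7.66 and 11.0 CPM at 2 days, 12.9 and 14.4 CPM at 4 days, and 23.8 and 23.7 CPM at 7 days. The 2-day libraries spanned the untreated ones, and those of 4 and 7 days lay above them. The log2 fold change was -0.10 at 2 days, 0.44 at 4 days (SE 0.178, edgeR adjusted p = 0.0848) and 1.24 at 7 days (SE 0.173, edgeR adjusted p = 5.85e-07), a 2.36-fold higher level, and the 7-day call held in all 12 alternatives that touch it. From 4 to 7 days PLAU rose by 0.80 (edgeR adjusted p = 0.00103), and 8.29% of all genes were called between those times; with total counts the step was 0.36 and not called.

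C10orf55, the antisense gene over PLAU, was higher than untreated cells at all 3 times of GSK591. It had 26.8 and 22.4 CPM at 2 days, against 12.6 and 11.4 CPM in untreated cells, and log2 fold changes of 1.03, 1.08 and 1.16 at 2, 4 and 7 days (edgeR adjusted p = 0.000155, 5.83e-06 and 2.72e-06). Both genes were high at 7 days, while PLAU was not called at 2 days; the difference between the genes was not tested. How far reads of 1 gene were counted for the other was not tested.

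Of the 3 times of GSK591 alone, SERPINE2 was lowest at 4 days and highest at 7 days. It had 18.3 and 17.8 CPM at 2 days, 15.1 and 14.9 CPM at 4 days, and 28.0 and 35.6 CPM at 7 days. The 4-day libraries were below all untreated libraries and the 7-day libraries above them. In the fit of all groups, only the step from 4 to 7 days passed (log2 fold change 1.08, SE 0.287, edgeR adjusted p = 0.0276), and it ended on leaving out any of its 4 libraries and with total counts. Without the MS023 with Dex pair that step had an adjusted p of 6.14e-08, and the changes against untreated cells were called too, -0.56 at 4 days (edgeR adjusted p = 0.00281) and 0.52 at 7 days (edgeR adjusted p = 0.00435). The step of TFPI2 from 4 to 7 days was 0.50 (edgeR adjusted p = 0.243), and was called without that pair (0.0448). For PLAUR, PLAT and TFPI2 the log2 fold changes against untreated cells under GSK591 alone lay between -0.48 (TFPI2 at 2 days) and 0.27 (TFPI2 at 7 days), and none passed.

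With MS023 alone PLAU and SERPINE2 were called lower at 4 days, 2 of 5 genes where 14.2% of all were called and 6.37% were called lower. At 2 days 0 members were called in edgeR or DESeq2 (10.4% of all genes in edgeR), and 0 had an unadjusted p below 0.05. Such a p was found for 5504 of all genes tested. Without the MS023 with Dex pair, SERPINE2 was called lower at 2 days (-0.42, edgeR adjusted p = 0.0352, against 0.408 with the pair). PLAU had 10.6 and 12.0 CPM at 2 days, 6.68 and 6.48 CPM at 4 days, and 8.57 and 8.40 CPM at 7 days. Only the 4-day and 7-day libraries lay below the untreated ones. PLAU differed by -0.62 on the log2 scale at 4 days (SE 0.187, edgeR adjusted p = 0.0192), it was lost with DESeq2 (adjusted p = 0.0728) and on leaving out any of the 4 libraries (edgeR adjusted p up to 0.173), and with total counts as the scaling it was 0.13.

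SERPINE2 had 18.9 and 14.2 CPM after 2 days of MS023, 8.95 and 9.90 CPM after 4 days, and 18.1 and 19.5 CPM after 7 days. All of these lay below the untreated libraries, and those of 4 days were lowest. At 4 days SERPINE2 was 2.35-fold lower (-1.23 on the log2 scale, SE 0.296, edgeR adjusted p = 0.00991). It missed the threshold without untreated replicate 1 (adjusted p = 0.0802) or either MS023 library (0.0881 and 0.0589), and with total counts (-0.48, adjusted p = 0.294), and had an edgeR adjusted p of 1.05e-09 without the MS023 with Dex pair. From 4 to 7 days SERPINE2 was higher by 1.00 (edgeR adjusted p = 0.0416), a call that ended on leaving out any of its 4 libraries and with total counts and had an adjusted p of 4.58e-07 without the MS023 with Dex pair, and 9.04% of all genes were called between those times.

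TFPI2 took its highest level of the series after 7 days of MS023. It had 16.2 and 13.1 CPM at 2 days, 10.9 and 10.8 CPM at 4 days, and 23.2 and 25.1 CPM at 7 days. The 4-day pair was below and the 7-day pair above both untreated libraries. The rise from 4 to 7 days was 1.15 on the log2 scale (SE 0.233, edgeR adjusted p = 0.00267). Against untreated cells the differences were -0.64 at 4 days (edgeR adjusted p = 0.0900) and 0.51 at 7 days (edgeR adjusted p = 0.157), and both were called without the MS023 with Dex pair (edgeR adjusted p = 0.00440 and 0.0163).

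PLAUR went the other way at 7 days of MS023, as the only member called, where 13.6% of all genes were called and 6.51% were called lower. It had 18.6 and 19.8 CPM at 2 days, 14.9 and 14.7 CPM at 4 days, and 12.6 and 12.6 CPM at 7 days. The 4-day and 7-day libraries lay below both untreated libraries. The log2 fold change at 7 days was -0.54 (SE 0.147, edgeR adjusted p = 0.00869). It was lost with DESeq2 (adjusted p = 0.0550) and without untreated replicate 1 (0.159) or either MS023 library (0.0624 and 0.0665). Total counts as the only scaling gave 0.48, with the all-gene median itself at 1.02, so PLAUR was at -0.54 relative to that median. PLAT had 7.15 and 5.14 CPM at 7 days of MS023, below both untreated libraries, and its log2 fold change of -0.43 (edgeR adjusted p = 0.188) was 0.59 with total counts.

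**Figure D2:**
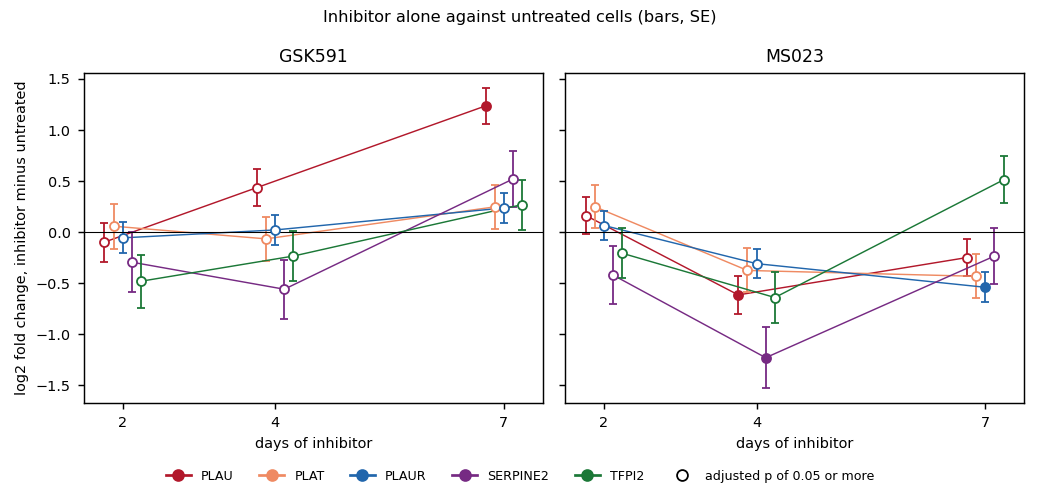
Log2 fold change against untreated cells (y axis) after 2, 4 and 7 days (x axis) of GSK591 (left) or MS023 (right), with SE bars; filled points passed an adjusted p below 0.05 in the edgeR fit of all groups. PLAU climbs to 1.24 with GSK591, while SERPINE2 is lowest at 4 days of either inhibitor, and TFPI2 is lowest at 4 days and highest at 7 days of MS023.

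Set against each other at the same dose and time, the inhibitors differed most for PLAU among the members at 4 and 7 days. At 2 days 0 of 5 genes were called in edgeR or DESeq2 (2.69% of all genes in edgeR). Of the 5, 0 had an unadjusted p below 0.05, where 3120 of all genes tested did. The log2 difference for PLAU, GSK591 minus MS023, was -0.26, with a 95% interval from -0.63 to 0.11. At 4 days PLAU was the only member called, where 6.03% of genes were, with a difference of 1.05 (SE 0.179, edgeR adjusted p = 4.70e-05) that was 0.72 and not called with total counts. At 7 days PLAU, PLAUR and PLAT were higher with GSK591, 3 of 5 genes where 9.38% of all were called and 4.91% were called higher. PLAU differed by 1.49 (SE 0.169, edgeR adjusted p = 6.74e-09), a 2.80-fold higher level. C10orf55, the antisense gene over PLAU, differed by 0.54, 0.88 and 1.45 at 2, 4 and 7 days (edgeR adjusted p = 0.0666, 0.000167 and 1.59e-08). Its share in the PLAU values was not tested. PLAUR had 18.8 and 24.5 CPM with GSK591 and 12.6 CPM in both MS023 libraries, a log2 difference of 0.78 (SE 0.147, edgeR adjusted p = 0.000186), and PLAT 9.07 and 10.7 CPM against 7.15 and 5.14 CPM, a log2 difference of 0.68 (SE 0.216, edgeR adjusted p = 0.0354). Both differences changed sign with total counts as the scaling, to -0.29 and -0.38. The all-gene median was then at -1.07, and the difference of PLAU was 0.44 and not called. The PLAT call was lost with DESeq2 (adjusted p = 0.108), with no filter (0.0507) and without either GSK591 library (0.0786 and 0.281) or MS023 replicate 2 (0.356).

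For SERPINE2 the difference of the inhibitors was 0.67 at 4 days and 0.76 at 7 days and passed at neither (edgeR adjusted p = 0.259 at 4 days). Without the MS023 with Dex pair it was called at both times (edgeR adjusted p = 0.00165 and 2.17e-05). For TFPI2 at 7 days it was -0.24, with an interval from -0.70 to 0.21, which does not show that the inhibitors act alike on it. Total counts gave -1.28, against an all-gene median of -1.07.

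After 7 days of an inhibitor, Dex again lowered PLAUR and TFPI2, and here PLAU fell as well. With GSK591, 1 of 5 genes was called at 15 min (2.09% of all genes) and 3 of 5 at 3 h (9.85% of all, 4.46% lower). PLAU had 23.8 and 23.7 CPM with GSK591 alone, 13.4 and 13.2 CPM after 15 min of Dex, and 13.0 and 13.9 CPM after 3 h. Both Dex groups lay below the GSK591 libraries and above the untreated ones. The log2 fold change was -0.84 at 15 min (SE 0.169, edgeR adjusted p = 0.00190) and -0.82 at 3 h (SE 0.169, edgeR adjusted p = 0.000422). Both calls ended with total counts (-0.79 and -0.62). C10orf55 stood at -0.29 and -0.42 in the same comparisons (edgeR adjusted p = 0.452 and 0.106).

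TFPI2 went from 20.8 and 20.0 CPM with GSK591 alone to 15.8 and 17.6 CPM at 15 min and to 5.29 and 4.36 CPM at 3 h of Dex. The 3 h libraries lay far below the rest, at a log2 fold change of -2.08 (SE 0.293, edgeR adjusted p = 2.73e-05), a 4.21-fold lower level and the largest fall of a member in these comparisons. PLAUR went from 18.8 and 24.5 CPM to 16.7 and 18.5 CPM and then 9.48 and 9.74 CPM. The later value was -1.17 on the log2 scale (SE 0.160, edgeR adjusted p = 2.51e-07). SERPINE2 had 31.3 and 34.8 CPM at 15 min, near the GSK591 libraries, and 19.7 and 15.0 CPM at 3 h. This difference, -0.87 on the log2 scale (SE 0.286, edgeR adjusted p = 0.0698), was called without the MS023 with Dex pair (edgeR adjusted p = 2.88e-06) and with DESeq2 (adjusted p = 0.0222).

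With MS023 before Dex, 2 of 5 genes were called at 15 min (2.07% of all genes) and 3 of 5 at 3 h (11.1% of all, 5.38% lower). PLAU had 8.57 and 8.40 CPM with MS023 alone, 4.98 and 5.08 CPM after 15 min of Dex, and 5.57 and 3.99 CPM after 3 h. These were the lowest PLAU levels of the series, with log2 fold changes of -0.75 at 15 min (SE 0.192, edgeR adjusted p = 0.0201) and -0.83 at 3 h (SE 0.191, edgeR adjusted p = 0.00169). The call at 15 min was lost on leaving out any of its 4 libraries and with DESeq2 (adjusted p = 0.0653), and that at 3 h without replicate 2 of the 3 h group (edgeR adjusted p = 0.114). With total counts they were -0.90 and -0.84 and not called. C10orf55 was at its lowest after MS023 and then Dex for 3 h as well, at 6.88 and 6.94 CPM, and its share in the PLAU values was not tested.

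TFPI2 went from 23.2 and 25.1 CPM with MS023 alone to 12.9 and 12.6 CPM and then 6.74 and 5.61 CPM. No group overlapped the next. On the log2 scale TFPI2 changed by -0.92 at 15 min (SE 0.232, edgeR adjusted p = 0.0361), lost on leaving out any of its 4 libraries, with DESeq2 size factors (adjusted p = 0.0525) and with total counts (0.330), and -1.96 at 3 h (SE 0.250, edgeR adjusted p = 6.11e-06). PLAUR went from 12.6 CPM in both libraries to 10.0 and 10.9 CPM and then 7.25 and 6.57 CPM, at 3 h -0.87 on the log2 scale (SE 0.158, edgeR adjusted p = 5.93e-05). SERPINE2 had 18.0 and 19.2 CPM at 15 min and 9.74 and 11.7 CPM at 3 h, at -0.81 (SE 0.287, edgeR adjusted p = 0.0881), and was called without the MS023 with Dex pair (edgeR adjusted p = 1.17e-05). PLAT had 6.05 and 6.41 CPM at 15 min and 6.88 and 7.60 CPM at 3 h, and its log2 fold changes after either inhibitor, -0.11 to 0.24, did not pass.

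**Figure D3:**
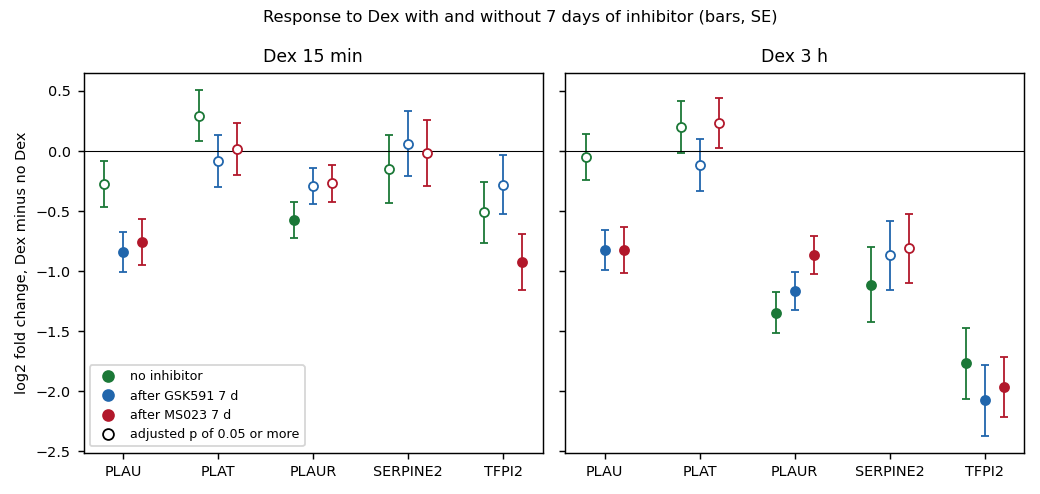
Log2 fold change with Dex for 15 min (left) and 3 h (right) on the y axis, for each gene on the x axis, without an inhibitor and after 7 days of GSK591 or MS023, each against its own group without Dex (bars, SE; filled points passed an adjusted p below 0.05 in edgeR). PLAU is near 0 at 3 h without an inhibitor and at -0.82 and -0.83 after either one, and TFPI2 is lowest in all 3 settings at 3 h.

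Whether the response to Dex itself differed after an inhibitor was tested by the interaction, the response after the inhibitor minus that without it. In edgeR 0 members were called in the 4 tests, in which 0.00436% of genes were called at 15 min and 0.223% at 3 h for each inhibitor. PLAU had an unadjusted p below 0.05 in 3 of the tests and PLAUR in 1. Of the 22919 genes tested, 1569 at 15 min and 2035 at 3 h had such a p with GSK591. With MS023 these counts were 1023 and 2087. At 15 min DESeq2 called 0 of 5 members with either inhibitor. At 3 h it gave an adjusted p to 0 members with GSK591 and to 1 with MS023, which was not called. DESeq2 therefore cannot serve as a second test of the members at 3 h. The interaction of PLAU at 3 h was -0.77 with GSK591 (95% interval -1.27 to -0.28, edgeR adjusted p = 0.234) and -0.78 with MS023 (-1.31 to -0.25, edgeR adjusted p = 0.274). At 15 min it was -0.57 and -0.48, with intervals from -1.07 to -0.07 and from -1.01 to 0.05. The 4 values share the untreated libraries, so they are not independent of each other. The interaction of C10orf55 at 3 h was -0.95 with GSK591 and -1.03 with MS023 (edgeR adjusted p = 0.0865 and 0.0644). At 15 min that of C10orf55 was 0.12 and 0.14. Its share in the PLAU values was not tested. For PLAUR at 3 h after MS023 the interaction was 0.48 (0.02 to 0.93, edgeR adjusted p = 0.535), and for SERPINE2 and TFPI2 every interval held 0. A fall of PLAU that passed after an inhibitor and not without one was thus not shown to differ between them.

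Levels after both treatments can also be compared directly. PLAU was lower after MS023 and then Dex for 3 h than after Dex for 3 h alone, by 1.03 on the log2 scale (a log2 fold change of -1.03, edgeR adjusted p = 0.000261), where 11.5% of genes were called. With total counts as the scaling it was -0.18 and not called. C10orf55 stood at -1.32 in that comparison (edgeR adjusted p = 1.07e-06). After GSK591 the same comparison gave 0.46 for PLAU (edgeR adjusted p = 0.0871), and 0 members were called in edgeR or DESeq2, with 3 (PLAU, PLAUR and SERPINE2) at an unadjusted p below 0.05, where 13.6% of genes were called. An unadjusted p below 0.05 was found there for 6058 of all genes tested. SERPINE2 stood at 0.77 and was called without the MS023 with Dex pair (edgeR adjusted p = 0.000337). For PLAUR and TFPI2 at 3 h of Dex, levels after MS023 differed from those of Dex alone by -0.06 (-0.42 to 0.29) and 0.31 (-0.31 to 0.94). Between the inhibitors, PLAU was higher after GSK591 and then Dex than after MS023 and then Dex, by 1.40 at 15 min and by 1.49 at 3 h (edgeR adjusted p = 3.81e-07 and 9.43e-08), where 15.6% and 11.1% of genes were called. At 15 min this difference was 0.55 with total counts and not called. C10orf55 differed by 1.44 at 15 min and by 1.53 at 3 h (edgeR adjusted p = 4.72e-08 and 1.69e-08). Its share in the PLAU levels compared here was not tested. PLAUR and SERPINE2 were called higher after GSK591 and then Dex at 15 min too, by 0.75 and 0.83 (edgeR adjusted p = 0.000361 and 0.0485), which made 3 of 5 members at 15 min and 1 of 5 at 3 h. With total counts PLAUR was at -0.079. The SERPINE2 call ended on leaving out any of its 4 libraries, with DESeq2 size factors (0.0505), with a replicate block (0.051) and with total counts (0.995), and had an adjusted p of 1.82e-06 without the MS023 with Dex pair. At 3 h SERPINE2 stood at 0.70 (0.166), and was called without that pair (0.000563).

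The authors' own comparison tables against untreated cells offer a second set of values, from a counting whose settings are not given in the sources used here. Each gene's mean signal in the authors' deposited tables was 345 for PLAU, 320 for SERPINE2, 294 for PLAUR, 105 for TFPI2, 41.7 for PLAT and 0.740 for SERPINB2. In the count table, the mean counts per library were 106, 177, 137, 130, 84.9 and 0.167 in that order, so the value in the authors' deposited tables was below the mean count for PLAT and TFPI2 and above it for the others. The scaling of the 2 sources can differ. Over 14 comparisons, the authors' deposited tables called PLAUR in 9 (all lower), SERPINE2 in 11 (all lower), PLAU in 7, TFPI2 in 7 and PLAT in 7. The count table gave 8, 4, 4, 5 and 0 calls, and each of these was called in the same direction in the authors' deposited tables. The 14 comparisons share the untreated libraries. The share of all genes called in the authors' deposited tables was not computed, so those counts of member calls have no background beside them. Of all genes, edgeR called 15.5% and 26.8% after GSK591 and then Dex for 15 min or 3 h, and 17.2% and 21.9% after MS023 and then Dex, against untreated cells.

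PLAT is where the sources part. In the authors' deposited table for Dex at 3 h, PLAT had a log2 fold change of -1.41 (adjusted p = 0.000438), against 0.20 from the count table (edgeR adjusted p = 0.641). The authors' deposited tables listed PLAT lower in all 5 groups that ended with 3 h of Dex, from -1.41 to -2.31, where the count table gave -0.20 to 0.20. They also listed PLAT higher after 7 days of GSK591 (0.84) and after GSK591 and then 15 min of Dex (0.70), where the count table gave 0.25 and 0.16. SERPINE2 differed too: at 3 h of Dex it was -2.42 in the authors' deposited table and -1.11 in the count table, and at 7 days of GSK591 it was 0.04 in the authors' deposited table and 0.52 in the count table. PLAUR fell further in the authors' deposited tables in groups that ended with 3 h of Dex. It was -1.81 there against -1.34 in the count table for Dex alone, and -1.79 against -1.23 for MS023 with Dex. For PLAU after 7 days of GSK591 the values were 1.40 in the authors' deposited table and 1.24, and for TFPI2 at 3 h of Dex -2.07 in the authors' deposited table and -1.77. Exons make up 20.4% of PLAT and 13.8% of SERPINE2, against 35.5% of PLAU and 47.9% of TFPI2 and 18.2% of PLAUR. Whether that bears on the difference between the sources was not tested. In some of the authors' rows the p is smaller than the fold change over its SE would give. At 15 min of Dex TFPI2 had -0.10 (SE 0.16, authors' unadjusted p = 0.101) and PLAT -0.035 (SE 0.13, authors' unadjusted p = 0.460). The authors' fold changes may thus be another measure than those of the count table, and whether they were shrunken toward 0 was not tested.

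**Figure D4:**
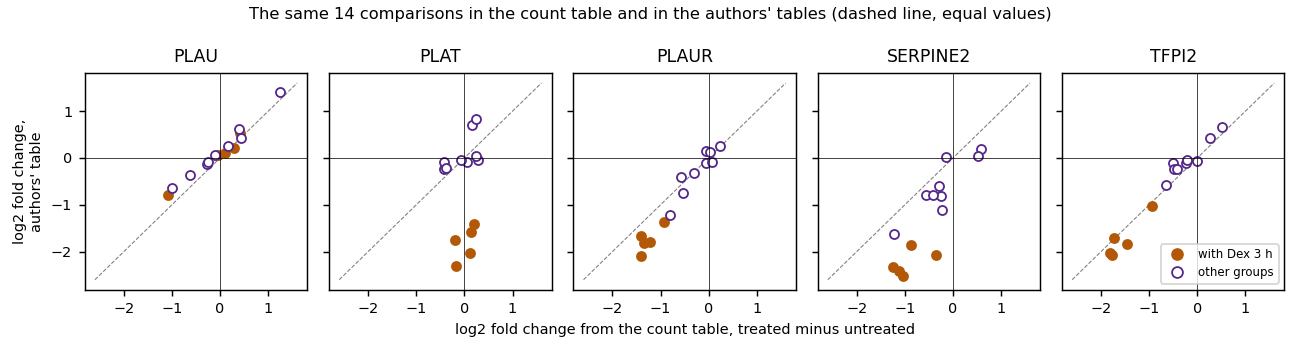
Log2 fold change against untreated cells for each gene in the count table (x axis) and in the authors' deposited tables (y axis), 14 comparisons each, with groups that ended with Dex for 3 h filled. PLAU and TFPI2 lie nearer the dashed line of equal values than PLAT and SERPINE2, and PLAUR lies below it in groups that ended with Dex for 3 h. PLAT falls to -2.31 in the authors' tables while staying near 0 in the count table. SERPINE2 lies below the line except at 15 min of Dex alone. Whether the authors' values were shrunken toward 0 is not given in the sources used here. The axes may therefore not hold the same measure.

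Other genes of the pathway were taken from a wider list of serpins, plasminogen receptors, coagulation and matrix proteases and their inhibitors and integrins, of which 58 could be tested. After 3 h of Dex, 8 were called higher and 2 lower, 17.2% against the 10.5% over all genes, with a median log2 fold change of 0.045 against -0.011. Among called genes of at least 5 CPM whose libraries did not overlap, the highest were THBD (thrombomodulin, a thrombin receptor), ITGA5 (the alpha chain of a fibronectin receptor) and F3 (tissue factor, which starts coagulation), at 1.40, 1.28 and 1.18. TFPI, the inhibitor of the tissue factor pathway and a relative of TFPI2, fell by 1.70 (edgeR adjusted p = 0.00163), from 39.7 and 36.3 CPM to 9.04 and 14.5 CPM. CTSB (cathepsin B) fell by 0.47, a call that ended without Dex 3 h replicate 1 (adjusted p = 0.105).

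After 7 days of GSK591, 12 of the 58 were higher and 5 lower (29.3% against 13.2% of all genes, median 0.22 against -0.0049). THBD rose by 0.91, SERPINB1 (an inhibitor of neutrophil proteases) by 0.75 and F12 (coagulation factor XII) by 0.62. F2R (a thrombin receptor), ENO1 (an enolase that also binds plasminogen) and ITGB5 fell by 0.99, 0.44 and 0.38. After 7 days of MS023, 6 were higher and 5 lower (19.0% against 13.6% of all genes, median 0.0048 against 0.0061). F12 rose by 0.94 and SERPINB1 by 0.86, SPINT2 (a Kunitz inhibitor of membrane proteases) by 0.33, and F2R and ITGA3 fell by 1.20 and 0.99. After GSK591, the F2R call ended without GSK591 replicate 1 (adjusted p = 0.124), that of F12 without untreated replicate 2 (0.176) or GSK591 replicate 1 (0.211), and that of ENO1 without untreated replicate 1 (0.110) or GSK591 replicate 2 (0.0931). The ITGB5 call ended without either untreated library (0.0532 and 0.0775) or GSK591 replicate 2 (0.160). After MS023, SPINT2 was lost on leaving out any of its 4 libraries, and the log2 fold change of ITGA3 was 0.032 with total counts. Total counts also ended the calls of F2R after MS023 (-0.19, adjusted p = 0.551), of F12, ENO1 and ITGB5 after GSK591 (0.198, 0.257 and 0.324) and of CTSB after Dex (0.529).

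Genes whose group means of log2 CPM followed each member most closely over the 15 groups were listed by Pearson's r among 11117 genes, as a description of these libraries. For TFPI2 they were TGFB2 (0.949), LONRF2 (0.944) and PCED1B (0.936). PLAUR was followed by IGFBP3 (0.934), FLJ16779 (0.929) and PLK2 (0.921), and SERPINE2 by AL136164.3 (0.924), JAG1 (0.924) and CFL2 (0.921). The values were lower for PLAU, with ELMO3 (0.872), PHETA1 (0.869) and EPHA2 (0.868), and for PLAT, with PUSL1 (0.843), TBC1D13 (0.837) and SLC27A3 (0.828). Among the members, PLAUR and TFPI2 had the highest r (0.819), followed by SERPINE2 with TFPI2 (0.704) and PLAUR with SERPINE2 (0.698). PLAU and PLAT had 0.610, and PLAT and TFPI2 the lowest, -0.158. The groups share depth scaling and, in part, the same treatments, so these values carry no test.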

How the data were processed

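The members and gene lists were chosen with earlier results of these data known. PRO-seq of A549 cells gave 30 libraries in 15 groups of 2, taken from the labels. The deposited counts are whole numbers per gene for 58780 genes, made by the authors; the submitters' processing notes name featureCounts 2.0.1 and hg38, and feature type and strand are not given in the sources used here. The authors' deposited comparison tables give a mean signal per gene (baseMean), log2 fold changes with standard errors, and p-values and adjusted p-values, under column names of DESeq2 output, per the file headers. They were only copied and set beside the counts.

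The test was edgeR's quasi-likelihood test on the counts (edgeR 4.0.16, limma 3.58.1, R 4.3.3) in 1 fit of all groups, with TMM scaling, robust fitting and no covariate. The filter (filterByExpr, minimum count 10, minimum total 15) kept 22919 genes, and 36 comparisons were each adjusted by Benjamini-Hochberg at 0.05; 8 of them, between inhibitor times, inhibitors with Dex or inhibitor and Dex against Dex, were added after values were seen. Residual degrees of freedom were 15, the median prior 34.1 and the biological coefficient of variation 10.6%. An exact permutation test of 2 against 2 cannot go below p = 0.333, so calls rest on the spread shared over groups, and each SE was derived from the fold change and its F statistic, with 95% intervals from the normal quantile. The procedure was tested on simulated data. Named genes are the members; from the wider list, in 3 comparisons, up to 3 rises and 3 falls among called genes of at least 5 CPM whose libraries do not overlap; and for each member the 3 genes most like it. C10orf55 lies outside that rule and was chosen after its values were seen. A gene of the wider list that the rule names is not reported here. Library totals ran from 8441211 to 13069598. Alternatives were DESeq2 1.42.0, its size factors in edgeR, total counts alone, no filter, the compared groups alone, a replicate block, no mitochondrial or ribosomal RNA genes, and leaving out each library. A fit without both libraries of MS023 with Dex for 3 h was added after values were seen.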

Additional observations from a re-analysis of the deposited data

How the results depend on the processing

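Over 38 alternative fits and 2521 recomputed values, 2316 kept their side of the threshold with no called value changing sign, 120 lost a call, 73 gained one, and 12 values called in at least 1 of the fits compared changed sign. Another 99 sign changes were of values called in neither fit, 54 of them on leaving out 1 library. Scaling by total counts alone gave every sign change of a called value. Against untreated cells they were PLAU at 4 and 7 days of MS023 (0.13 and 0.77), PLAUR, PLAT, ITGA3 and C10orf55 at 7 days of MS023 (0.48, 0.59, 0.032 and 0.73), PLAUR after MS023 and then Dex for 15 min (0.070), and PLAT after MS023 and then Dex for 3 h (0.81). The others were PLAUR and PLAT between the inhibitors at 7 days (-0.29 and -0.38), PLAUR after MS023 and then Dex for 3 h against Dex for 3 h (0.79), and PLAUR between the inhibitors followed by Dex for 15 min (-0.079). Under that scaling the median of all genes moved by 1.02 at 7 days and by 0.74 at 4 days of MS023.

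Counts of member tests called moved most for inhibitors alone against untreated cells, from 4 to 8 with total counts, 7 with no filter, 9 without the MS023 with Dex pair (an alternative chosen after seeing the data), 11 with the compared groups alone and 2 with DESeq2. Leaving out 1 library gave 1 to 4 of these calls, 3 to 5 for Dex alone (6 with all libraries) and 0 to 2 for an inhibitor with Dex against Dex (0 with all libraries). That last count was 1 with no filter. With total counts, calls between the inhibitors went from 4 to 1, and calls of Dex after an inhibitor from 9 to 4. Without the MS023 with Dex pair, calls over all genes rose too at every time of either inhibitor alone. They went from 1292 to 1749 genes at 2 days of GSK591 and from 3127 to 3857 at 7 days of MS023. For the other alternatives, calls over all genes were not set beside these counts. The causes were not tested.

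Replicate numbers did not pair the libraries: over 105 pairs of groups the median correlation of deviations was 0.0214 (-0.451 to 0.487). A replicate block changed 1 call, SERPINE2 between the inhibitors followed by Dex for 15 min (0.83, adjusted p = 0.051). With 2 libraries a group, the lone library left in a reduced group was assumed to vary like the others.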
